A study of Mus musculus with 6 samples.

Results

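GABA-A receptors are the chloride channels through which the transmitter GABA inhibits neurons, and their subunit genes were followed here in the adult mouse brain with and without RNA editing by ADAR1. The genes described are Gabra2, Gabra4 and Gabra5, which encode the alpha 2, alpha 4 and alpha 5 subunits, Gabrb1 and Gabrb2, which encode beta 1 and beta 2, Gabrg1 for gamma 1 and Gabrd for delta. They were taken by symbol from the table of read counts, and all 7 were found among its 37310 genes. A further 12 genes of the family were read alongside them. The genotype comparison called 0 of the 7 at an adjusted p under 0.05, where it called 0.506% of all 13649 tested genes. The 95% interval of the fold change of each of the 7 included no change.

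Whole brains came from 12 week old male C57BL/6 mice, 3 of each genotype. The Adar1 E861A/E861A Ifih1-/- animals carry a point mutation on both Adar1 alleles that removes the editing activity of ADAR1, an enzyme that converts adenosine to inosine in double-stranded RNA. The Adar1+/+ Ifih1-/- controls have a normal Adar1 gene. Both genotypes lack Ifih1, which encodes MDA5, the cytosolic sensor of unedited double-stranded RNA, so the comparison is of editing by ADAR1 on an MDA5-deficient background, and no Ifih1+/+ animals were part of it. Ribosome-depleted total RNA was sequenced, and the values are reads counted per gene. They hold no measure of editing itself, and in whole brain fewer cells of a type and less RNA per cell cannot be told apart.

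GABA-A receptors are assembled from several subunits around a pore, most often alpha, beta and gamma subunits together. Beta 2 is part of the common synaptic form, alpha 2 is known from synapses on the cell body and axon start, and alpha 5 from hippocampal receptors outside synapses. The delta subunit takes the place of gamma in receptors outside the synapse that answer to low ambient GABA, with alpha 4 in the forebrain and with alpha 6 in cerebellar granule cells. Gamma 1 is restricted to fewer regions than most subunits, and alpha 2, beta 1 and gamma 1 are also known from astrocytes.

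All but Gabrd lie beside other subunit genes, as is typical of this family. In the NCBIM37 build, Gabrg1 (chr5:71142286-71233856, minus strand), Gabra2 (chr5:71352296-71487088, minus strand), Gabra4 (chr5:71960973-72049547, minus strand) and Gabrb1 (chr5:72091171-72529628, plus strand) share 1.39 Mb of chromosome 5, and the only protein-coding gene annotated in the gaps between them is Cox7b2, between Gabra2 and Gabra4. Gabra4 and Gabrb1 point away from each other across a gap of 41.6 kb. Gabra5 (chr7:64663060-64765379, minus strand) lies 20.5 kb from Gabrg3. Gabrb2 (chr11:42233259-42446092, plus strand) lies 98.7 kb from Gabra6. Gabrd (chr4:154759089-154772221, minus strand) has no neighbouring subunit gene and is the shortest of the 7, spanning 13.1 kb against 88.6 to 438.5 kb for the others. Of the 7, only Gabra5 has exons that overlap another gene's exons, by 118 bp with Gm9962 on the opposite strand.

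The start regions of 6 of the genes, given here, differ in their content of CpG, the dinucleotide that is dense in CpG-island promoters. They are shown so that the starts of the genes can be read side by side, and no link to the levels was tested. Each line gives the 30 bases just before the annotated start, read 5′ to 3′ on the strand of the gene from NCBIM37, with CpG in capitals.
Gabrd (chr4:154772222-154772251, minus strand): actgtggCGCGgggCGgggCGgggCGgggc
Gabra5 (chr7:64765380-64765409, minus strand): ctcaaacccagagaCGacatgtggCGcttt
Gabra4 (chr5:72049548-72049577, minus strand): tcctcaaacaacctatgagaaaggctcttc
Gabrb1 (chr5:72091141-72091170, plus strand): agtgagtaccctctgCGcatgCGcaggtcc
Gabrb2 (chr11:42233229-42233258, plus strand): gagccccaagcagaggaaatgatttttcct
Gabrg1 (chr5:71233857-71233886, minus strand): agccaaggaaagggaagaggtagtggcccc

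Over a window of 300 bases, from 250 before the annotated start to 50 after it, Gabrd held 28 CpGs, Gabra5 19, Gabra4 12, Gabrb1 9, Gabrb2 7 and Gabrg1 3. The median over the windows of 22375 protein-coding genes was 11. A GC box, searched as GGGCGG on both strands, was found in the windows of Gabrd and Gabra4, and in 43.4% of all windows. Neither TATAAA nor the cyclic AMP response element TGACGTCA, each searched on both strands, was found in any of these 6, against 13.4% and 2.3% of all windows. These matches describe the letters and not binding.

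Depth was high for all 7 genes. The 6 libraries held 26853488 to 38076753 counted reads, and the lowest count of any of the 7 in any library was 778, for Gabrd. All 7 passed the filter of at least 2 CPM (the reads of a gene scaled to a fixed total of counted reads) in every library of a genotype, as did 13649 genes in all. Adar itself was at 169, 164 and 151 CPM in Adar1 E861A/E861A Ifih1-/- and at 116, 172 and 163 CPM in controls (adjusted p = 0.822, edgeR quasi-likelihood test), as a point mutation need not change the count. Ifih1 had 38 to 56 reads per library in both genotypes and did not pass the filter. One library stood apart: Adar1 E861A/E861A Ifih1-/- replicate 1 held 439.8 CPM summed over 6 pituitary hormone genes, against 1.974 to 3.638 CPM in the other 5. The defining markers of brain were present: 5 neuron markers summed to 3494 to 3621 CPM in mutants and 3646 to 3654 CPM in controls, 6 astrocyte markers to 5129 to 5355 and 4495 to 4727 CPM, and 5 oligodendrocyte markers to 4119 to 4347 and 4045 to 4364 CPM. In CPM from column totals the neuron and astrocyte sums did not overlap between the genotypes, and 0 of their genes were called. Of the 6 astrocyte markers, only Slc1a2 was itself without overlap. Snap25, the most abundant neuron marker, did overlap after TMM scaling, which adjusts library totals for composition.

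Between genes, levels were compared per kilobase of exon. Gabrb2 was the highest of the 7 at 48.0 CPM per kb (mean over 6 libraries, range 46.2 to 50.1). Gabra4 followed at 25.8, Gabrb1 at 23.1, Gabra2 at 20.6, Gabra5 at 14.1, Gabrd at 11.0 and Gabrg1 at 7.78 CPM per kb. The order was the same in all 6 libraries for each neighbouring pair, and the ranges of neighbours were separate except for Gabrb1 (21.9 to 24.3) and Gabra2 (19.7 to 22.7). Gabra4 lay only just above Gabrb1, with a lowest value of 24.4 against a highest of 24.3 CPM per kb. The same exon length of a gene entered every library, so agreement between libraries does not check the lengths. In mean CPM without length Gabrd was the lowest of the 7, at 31.1 in mutants and 32.1 in controls. Gabrg1 was at 37.0 and 37.2 CPM.

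Set in the whole family, the 7 genes made up 39.8 to 40.9% of the summed level per kb of 19 subunit genes. Gabra6 (29.6 CPM per kb, range 25.1 to 34.7) and Gabra3 (23.9, range 23.0 to 24.7), for alpha 6 and alpha 3, lay around Gabra4 and Gabrb1. The range of Gabra6 overlapped that of Gabra4 (24.4 to 27.1), and the range of Gabra3 overlapped those of Gabra4 and Gabrb1. Gabra4 lay above Gabra3 in every library. Gabra6 lay above Gabra4, and Gabra3 above Gabrb1, in only 5 libraries each, so those orders are not resolved. Below Gabrg1 came Gabrg3 at 4.32 and Gabrq, encoding theta, at 1.46 CPM per kb. Gabrr2, Gabre and Gabrr1 were at 0.497, 0.384 and 0.107 CPM per kb, Gabrr3 had 0 to 2 reads per library, and Gabrp had 0 reads in all 6. Alpha genes took 54.3 to 55.1% of the family sum, beta genes 31.0 to 31.9%, gamma genes 9.72 to 10.3% and delta, which is Gabrd alone, 2.62 to 3.31%. A subunit's share of RNA is not its share of receptors.

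**Figure D1:**
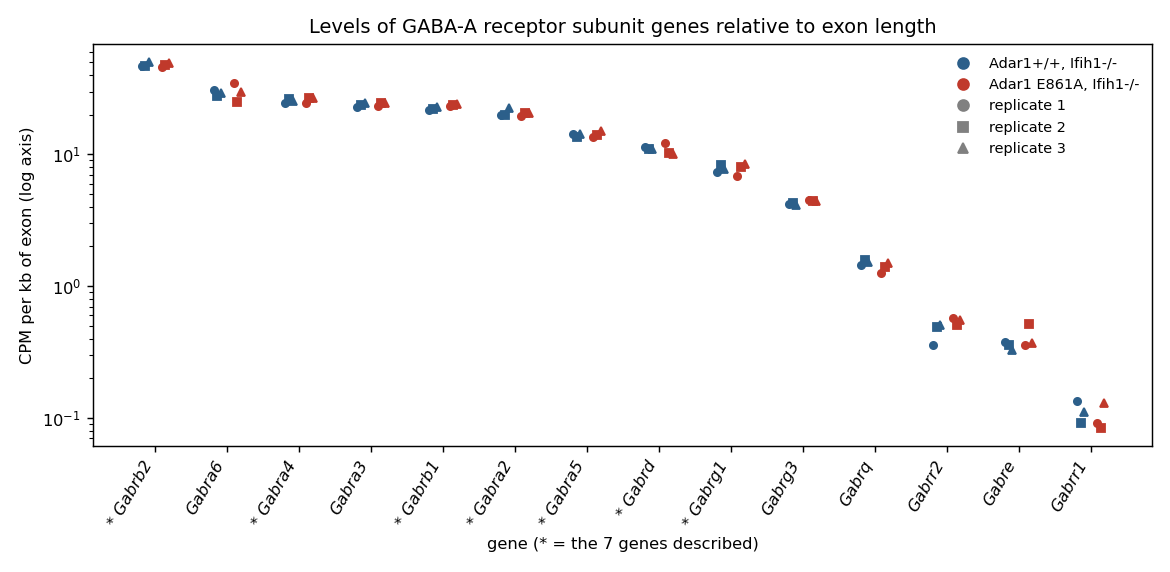
Level of 14 GABA-A receptor subunit genes in CPM per kb of exon (log axis), one point per library, blue for Adar1+/+ Ifih1-/- and red for Adar1 E861A/E861A Ifih1-/-, with the symbol giving the replicate number. Not every gene of the family is drawn, and Gabrp and Gabrr3, with 0 reads in at least 1 library, are among those left out. Gabrb2 at 48.0 is the highest of the 7 genes marked with an asterisk, and Gabrg1 at 7.78 is the lowest of them.

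The comparison of genotypes asks whether loss of ADAR1 editing changed the amount of these transcripts. The quasi-likelihood test of edgeR called 0 of the 7 genes at a Benjamini-Hochberg adjusted p under 0.05, where it called 0.506% of the 13649 tested genes (56 that were higher in mutant brains and 13 that were lower). At an unadjusted p under 0.05 the count was also 0 of 7, against 9.01% of all tested genes. The other tools called 0 of 7 as well, where the edgeR likelihood ratio test called 1.02% of all genes, DESeq2 0.601% and limma-voom 0.498%, as did the quasi-likelihood fit with the replicate number as a block, which called 1.16% of all genes. Without mutant replicate 1, the library with pituitary transcripts, the count was again 0 of 7. The median log2 fold change of the 7, mutant over control, was 0.0032, beside -0.0010 for all tested genes, whose interquartile range ran from -0.059 to 0.059. Only Gabrb1, 1 of the 7, had CPM values that were separate between the genotypes, against 13.8% of all tested genes.

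Among the alpha genes, Gabra2 was at 47.1, 49.0 and 49.2 CPM in Adar1 E861A/E861A Ifih1-/- replicates 1 to 3 and at 48.0, 47.5 and 54.2 CPM in controls. The genotypes overlapped, and control replicate 3 was the highest library. The log2 fold change was -0.041 ± 0.059 (SE), with a 95% interval from -0.17 to 0.086 and an adjusted p of 0.869. Without control replicate 3 it was 0.019, on the other side of 0.

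Gabra4, the usual forebrain partner of delta, was at 101.5, 110.0 and 111.7 CPM in mutant brains and at 100.7, 109.1 and 105.0 CPM in controls. The lowest value of each genotype was its replicate 1, and the genotypes overlapped. Its log2 fold change was 0.039 ± 0.057, with an interval from -0.084 to 0.16 and an adjusted p of 0.87.

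Gabra5 was at 35.7, 37.2 and 39.7 CPM in mutant brains and at 37.7, 35.8 and 38.1 CPM in controls. The mutants held both the lowest and the highest library. The log2 fold change of 0.014 ± 0.057 had an interval from -0.11 to 0.14 and an adjusted p of 0.961, and it turned negative when mutant replicate 3 or control replicate 2 was left out (-0.032 and -0.0026). Reads of Gm9962 within the shared 118 bp cannot be set apart here, since the strand setting of the counts is not given in the sources used here.

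Gabrb1 came nearest to a difference. Its level was 72.3, 73.8 and 74.9 CPM in mutant brains and 67.8, 68.2 and 70.8 CPM in controls, so that every mutant library lay above every control. The means were 73.7 ± 1.34 and 68.9 ± 1.63 CPM (SD, n = 3 each). The log2 fold change was 0.098 ± 0.048, a change of 7% with a 95% interval from -0.449 to 15%. The unadjusted p was 0.0639 and the adjusted p 0.574 (edgeR quasi-likelihood test), so the difference was not called. When replicate number entered the fit as a block, the unadjusted p was 0.0257 and the adjusted p 0.255, also not called. The same-numbered libraries differed by 0.083, 0.109 and 0.10 on the log2 scale, higher in the mutant in 3 of 3 pairs. Any pairing would give that sign, since no mutant library overlapped a control, so the count adds nothing to the lack of overlap. The markers of astrocytes, cells in which beta 1 is also known, were 5129 to 5355 CPM summed over 6 genes in mutants and 4495 to 4727 CPM in controls. That sum did not overlap between the genotypes, and 0 of the 6 genes were called. Of it, 4165 ± 84.8 CPM in mutants against 3630 ± 125 CPM in controls was Slc1a2, the astrocyte glutamate transporter. Slc1a2 was the only gene of the 6 whose own values did not overlap. Gabra2 and Gabrg1, also known from astrocytes, had log2 fold changes of -0.041 and -0.0078, and their genotypes overlapped. The part of these cells in the Gabrb1 values was not tested.

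Gabrb2, the most abundant of the 7, was at 458, 477 and 495 CPM in mutant brains and at 463, 469 and 497 CPM in controls. The spans of the genotypes were nearly equal. Its log2 fold change of 0.0032 ± 0.052 had an interval from -0.11 to 0.11 and an adjusted p of 0.991.

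Gabrg1 was at 32.5, 38.3 and 40.3 CPM in mutant brains and at 35.0, 39.5 and 37.3 CPM in controls. It had the largest spread of the 7 in mutants, a coefficient of variation of 10.99% against a median of 5.804% over all tested genes, and replicate 1 was its lowest library in each genotype. The log2 fold change was -0.0078 ± 0.082, with an interval from -0.18 to 0.17 and an adjusted p of 0.988. Without mutant replicate 1 it was 0.087, on the other side of 0 and not called.

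Gabrd was at 35.0, 29.4 and 29.0 CPM in mutant brains and at 33.0, 31.7 and 31.7 CPM in controls. The mutants spanned more than the controls on both sides, with coefficients of variation of 10.83% and 2.244%. The log2 fold change was -0.047 ± 0.064, with an interval from -0.18 to 0.090 and an adjusted p of 0.86. Without mutant replicate 1 it was -0.13 with an adjusted p of 0.622 (edgeR quasi-likelihood test), the largest value of any of the 7 under any alternative fit and still not called.

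**Figure D2:**
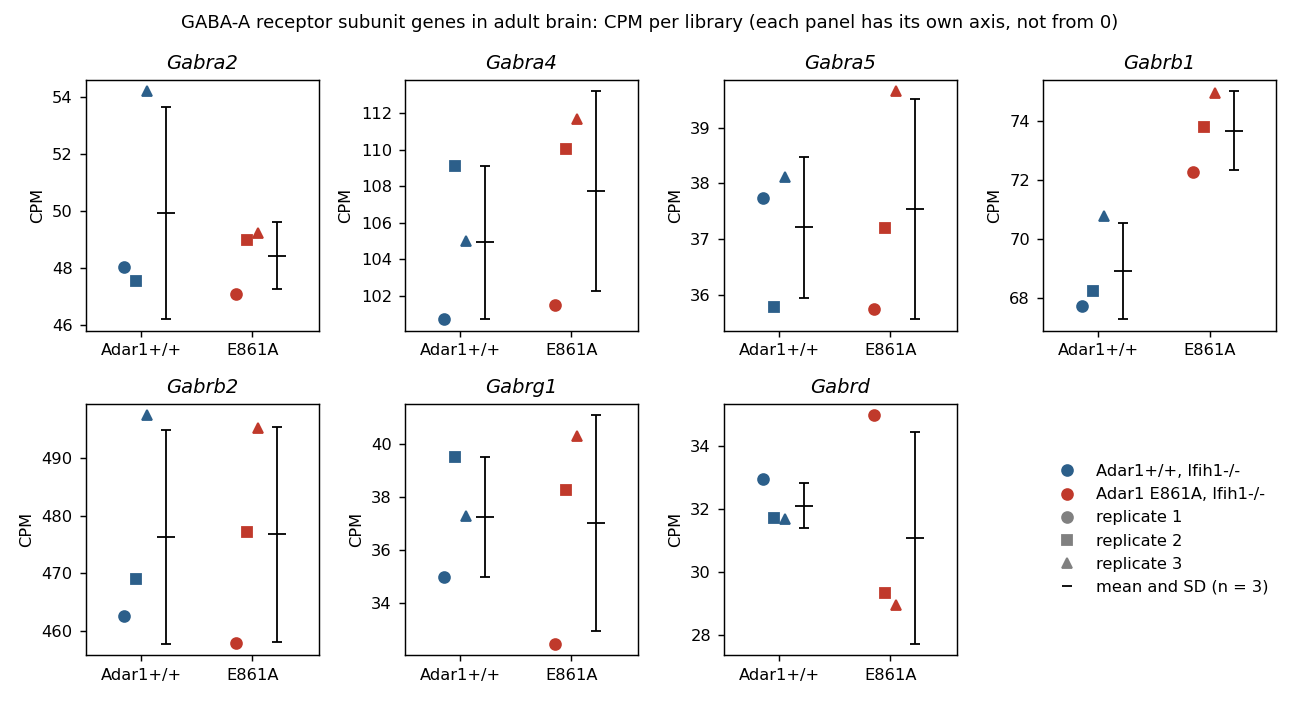
CPM of the 7 genes in each library, one panel per gene with its own axis that does not start at 0; blue, Adar1+/+ Ifih1-/-; red, Adar1 E861A/E861A Ifih1-/-; symbols give the replicate number and black marks the mean and SD (n = 3). Only in the Gabrb1 panel do the genotypes stand apart, with 72.3 to 74.9 CPM against 67.8 to 70.8 CPM. Gabrd alone has replicate 1 as the highest library of each genotype, by little in the controls.

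The intervals limit the size of any change that could have been missed. All 7 lay within 0.25 of 0 on the log2 scale. The lowest bound was that of Gabrd, at -12.0%, and the highest that of Gabrb1, at 15%. Across the 14 subunit genes that passed the filter, the interval included 0 for 14. The other 7 tested subunits had 0 calls and a median log2 fold change of 0.024. They ran from -0.12 ± 0.10 for Gabrq, the least abundant of them, to 0.084 ± 0.047 for Gabrg3, the gene next to Gabra5. Gabrg3 was at 53.8, 52.7 and 52.7 CPM in mutant brains and at 49.9, 50.8 and 49.5 CPM in controls, without overlap and with an adjusted p of 0.626. Gabrg3 and Gabrb1 were the only tested subunit genes whose genotypes did not overlap, 2 of 14 beside 13.8% of all tested genes, and neither was called. Gabra3, at 0.022 ± 0.052, and Gabra6, at 0.024 ± 0.082, were not called either.

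**Figure D3:**
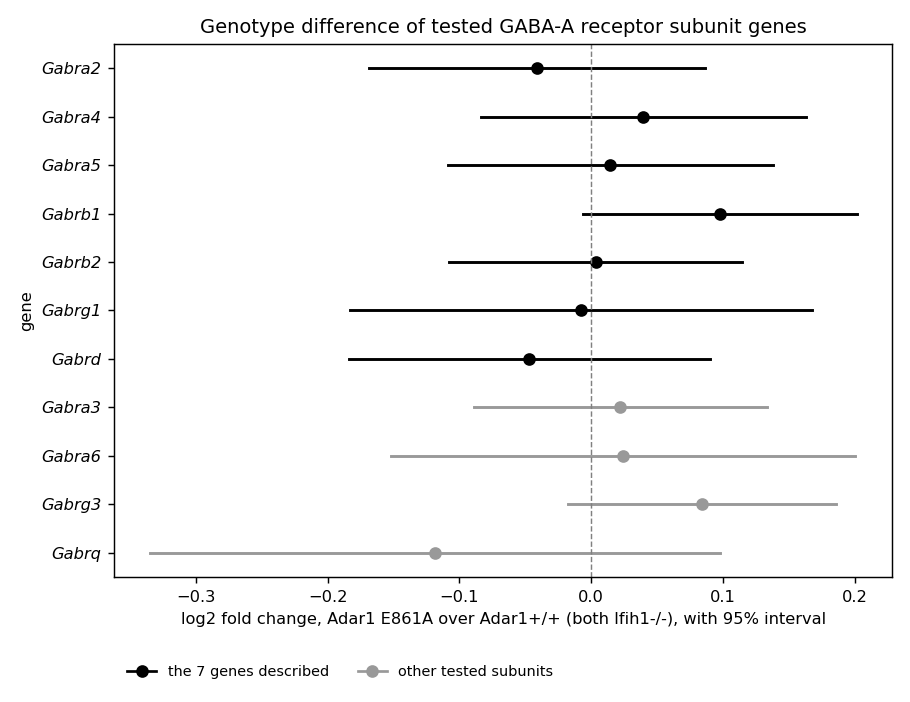
Log2 fold change of tested GABA-A receptor subunit genes, Adar1 E861A/E861A Ifih1-/- over Adar1+/+ Ifih1-/-, with its 95% interval from the edgeR quasi-likelihood fit; black, the 7 genes described; grey, Gabra3, Gabra6, Gabrg3 and Gabrq. Every interval crosses 0, and that of Gabrb1, from -0.0065 to 0.20, does so least among the black ones.

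The relative levels of the 7 within each library do not depend on library scaling. Gabrb1 made up 15.99, 15.78 and 15.62% of the summed level per kb in mutant brains and 15.02, 14.88 and 14.84% in controls. The genotypes did not overlap, the difference of means was 0.886 percentage points, and the exact two-sided permutation test gave p = 0.1, the smallest it can give with 3 against 3 libraries, or 0.7 after Benjamini-Hochberg adjustment over the 7 genes. The 6 other shares overlapped. Gabrb2 held 31.8% in mutants and 32.1% in controls, Gabra4 17.3 and 17.0%, Gabra2 13.4 and 13.9%, Gabra5 9.37 and 9.38%, Gabrd 7.185 and 7.473%, and Gabrg1 5.13 and 5.22%. Among the beta genes alone, Gabrb1 took 20.1 ± 0.0601% in mutants and 19.3 ± 0.206% in controls (SD, n = 3 each).

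**Figure D4:**
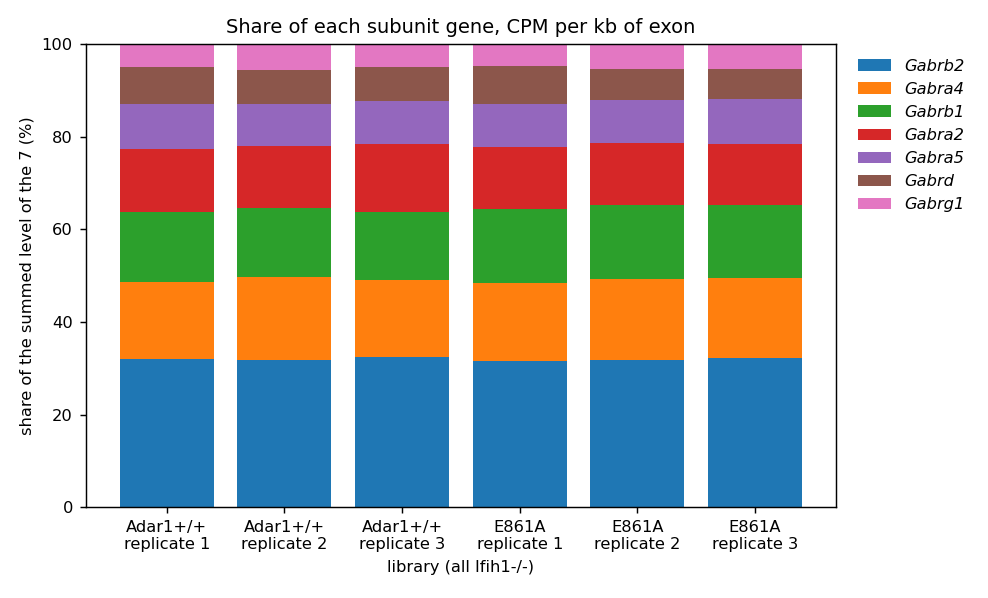
Share of each of the 7 genes in their summed level (CPM per kb of exon, in percent) in each of the 6 libraries, as stacked bars that add up to 100. The bars are alike across the libraries, and the Gabrb1 segment is 15.62 to 15.99% in the mutants against 14.84 to 15.02% in the controls.

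The 7 genes moved between libraries of the same genotype in 2 ways. After TMM scaling, replicate 1 was the lowest library of its genotype for 6 of the 7 genes in mutants and for 5 of the 7 in controls. Gabrd went the other way, highest in replicate 1 and lowest in replicate 3 of each genotype. Its deviations from the genotype mean on the log2 scale were 0.145, -0.062 and -0.083 in mutants, while those of Gabrg1 were -0.212, 0.070 and 0.143 and those of Gabrb2 -0.087, 0.018 and 0.069. In controls the deviations of Gabrd were much smaller, at 0.019, 0.004 and -0.023, so its order there is not resolved. Gabra6, the cerebellar partner of delta, was also highest in replicate 1 of each genotype, at 86.4, 62.4 and 74.6 CPM in mutants and 77.4, 69.1 and 72.8 CPM in controls. Of 6 marker genes of cerebellar granule neurons, the summed level was 460.7, 383.1 and 412.5 CPM in mutants and 512.1, 440.1 and 457.0 CPM in controls. That sum was also highest in replicate 1 of each genotype. At the low end the orders differed, with the sum and Gabra6 lowest in replicate 2 and Gabrd in replicate 3. In the genotype comparison all 6 marker genes had a log2 fold change below 0 and 0 were called. An unadjusted p under 0.05 (edgeR quasi-likelihood test) was found for 4 of the 6, beside 9.01% of all tested genes. The part of cerebellar tissue in the Gabrd values was not tested. The differences between same-numbered libraries had 1 sign in all 3 pairs for Gabrb1 and Gabra4. For Gabrb1 the lack of overlap between the genotypes fixed that sign, and for Gabra4 the differences were only 0.001, 0.008 and 0.107.

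For each of the 7, the genes with the most similar pattern were found by Pearson's r of log2 CPM over the 6 libraries, among 9669 genes with a mean of at least 10 CPM. The values are a description over 6 points, and each library brings its own depth and tissue composition to every gene. Gabra2 was most like Chl1 (r = 0.986), Nrip1 and Cldn12. Gabra4 was most like Phyhipl (r = 0.992), Nipa1 and Tor1aip2, and Gabra5 like Anapc4 (r = 0.991), Cpd and Grin3a. Gabrb1 was most like Atp13a3 (r = 0.996), St6gal2 and Senp8, and Gabrb2 like Tmx1 (r = 0.985), Arl5a and Atp2b1. Gabrg1 was most like Actr3 (r = 0.993), Ywhaq and Dld, and Gabrd like Plekho1 (r = 0.995), Rasal1 and Maml1. No other subunit gene was among these 3 for any of the 7. The r values are the highest picked from 9669 genes and were not tested. The choice also depended on scaling. With column totals in place of TMM scaling, 1 of the 3 genes was shared for Gabra2 and for Gabrg1. All 3 were shared for Gabrb2, and 2 of the 3 for each of the others.

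The rest of the GABA pathway was read from the same fit. Over 5 lists with 34 tested genes of 40, the other subunits included, 0 were called and 4 had an unadjusted p under 0.05, where 0.506% and 9.01% of all tested genes did. In the list for synthesis, transport and breakdown of GABA, 8 of 9 genes had a log2 fold change below 0 and the median was -0.046. Its lowest was Slc32a1, the vesicular GABA transporter, at 46.7, 52.4 and 44.7 CPM in mutant brains and 55.2, 53.6 and 54.6 CPM in controls. The mutants lay below the controls without overlap, at -0.18 ± 0.061 with an unadjusted p of 0.0106 and an adjusted p of 0.383. Without mutant replicate 2 the value was -0.26 with an adjusted p of 0.0358 (edgeR quasi-likelihood test), in a fit that called 113 genes in all against 69 in the main fit. Leaving out any other library gave an adjusted p from 0.472 to 0.892. Gad1, which makes GABA from glutamate, was at -0.14 with an adjusted p of 0.515 and was chosen after its value was seen. The highest of the list was Aldh5a1, which clears the GABA breakdown product succinic semialdehyde, at 0.035. Over 8 marker genes of GABA neurons, a list that also holds Gad1 and Slc32a1, the summed level was 749.6 to 814.2 CPM in mutants and 788.7 to 859.0 CPM in controls, with 0 called. Of the 8, 7 had a log2 fold change below 0, and 4 had an unadjusted p under 0.05 (edgeR quasi-likelihood test), beside 9.01% of all tested genes. Vip, among those 4, went the other way, at 0.32. Its unadjusted p was 0.000676 and its adjusted p 0.1 (edgeR quasi-likelihood test), and it was named after its value was seen. In CPM from column totals the 5 general neuron markers were also lower in sum in mutants (3494 to 3621 against 3646 to 3654 CPM), with 4 of 5 log2 fold changes below 0 and 0 called. The part of either in the values of the GABA pathway genes was not tested.

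Among 11 genes of the inhibitory postsynapse and receptor trafficking the median was -0.0098. The lowest was Lhfpl4, which links the receptor to neuroligin 2, at -0.14 ± 0.062. Nlgn2, for neuroligin 2 itself, was at -0.14 with an adjusted p of 0.515 and was named after its value was seen. The chloride cotransporters Slc12a2 and Slc12a5, which load and extrude the chloride that GABA-A receptors pass, were at -0.083 ± 0.049 and -0.075 ± 0.048. Among 5 tested genes of the GABA-B receptor and its auxiliary subunits the median was -0.050, from -0.11 for Kctd8 to 0.085 for Kctd16. None of these was called.

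**Figure D5:**
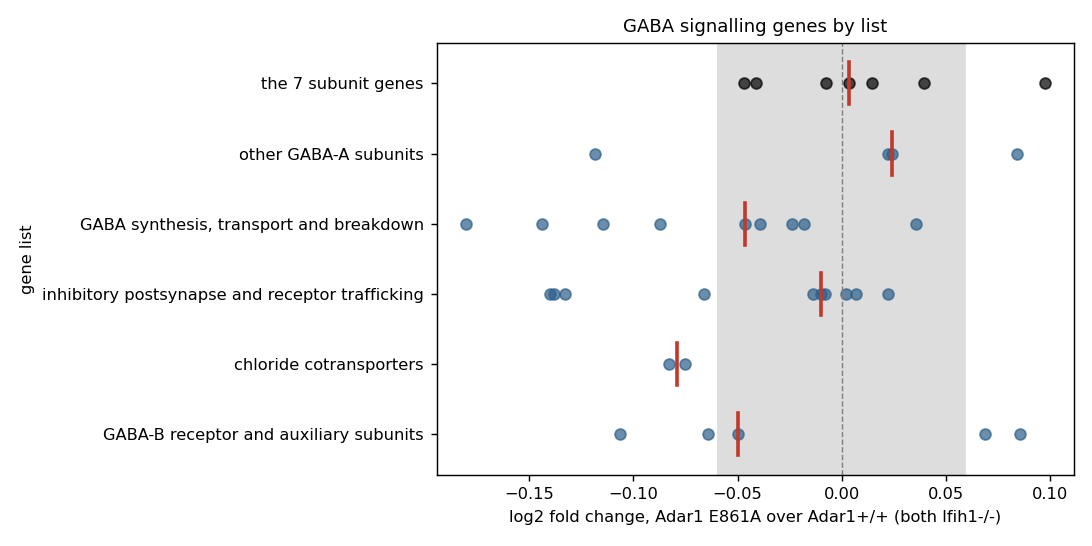
Log2 fold change, Adar1 E861A/E861A Ifih1-/- over Adar1+/+ Ifih1-/-, of most tested genes of the GABA signalling lists, with a red bar at the median over all tested genes of each list; the grey band is the interquartile range of all 13649 tested genes, from -0.059 to 0.059. The medians run from -0.079 for the 2 chloride cotransporters to 0.024 for the other subunits, with 0.0032 for the 7 subunit genes, and none of the genes drawn was called.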

How the data were processed

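RNA was isolated from whole brain of 3 mice per genotype, described by the labels as independent biological replicates. The authors trimmed reads (Trimmomatic 0.36, per the submitters' processing notes), aligned them to mm9/NCBIM37 with STAR 2.5.2a and deposited raw counts per gene; the strand setting is not given in the sources used here. Deposited CPM values by the authors, for 13891 retained genes, matched those computed from the counts within 0.002 for all 13891 when scaled to the total of the retained genes. The retained genes held 99.4 to 99.53% of the counts, so the CPM given here, from column totals, are slightly lower than the deposited ones. A deposited table of the authors' fold changes and FDR values was not used.

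CPM were computed from column totals. Genes with at least 2 CPM in 3 of 3 libraries of either genotype (13649) were fitted with edgeR 4.0.16 (R 4.3.3) after TMM scaling, by the quasi-likelihood test without covariates, and Benjamini-Hochberg adjusted over all tested genes. This filter retained fewer genes than the authors' table. Intervals are 95% intervals of the fit. Lengths are unions of GENCODE vM1 exons, in which all 37310 gene IDs were found. Alternatives were the likelihood ratio test, DESeq2 1.42.0, limma-voom 3.58.1, RLE factors, column totals, other filters, a replicate block and leaving out each library; the scripts were tested on simulated data. Libraries with the same replicate number deviated together weakly (r = 0.221, 0.329 and 0.112 for numbers 1, 2 and 3). The highest r with a library of another number was 0.00331, -0.1 and 0.0523. Whether the numbers pair the animals was not tested, and the labels do not say what the numbers share. Total counts of 26853488 to 38076753 per library set the precision.

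Named were the 7 genes, the other subunits, of each pathway list the highest and lowest tested gene and any called, the 3 genes most like each of the 7, and Adar and Ifih1; the values or start sequence of a few of these are not reported here. The members and lists were chosen with earlier results of these data known. Marker lists of striatal projection neurons (278.8 to 311.8 CPM summed), hippocampal neurons (95.48 to 104.9), thalamic neurons (145.4 to 193.2), and microglia (104.9 to 116.8) had 0 genes called. Endothelium markers summed to 90.44 to 109.9 CPM in mutants and 114.5 to 138.0 CPM in controls, and choroid plexus markers to 217.5 to 326.1 and 385.2 to 405.2 CPM; in each list 4 of 4 genes had a log2 fold change below 0, 3 and 2 had an unadjusted p under 0.05, and 0 were called.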

Additional observations from a re-analysis of the deposited data

How the results depend on the processing

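The count of 0 called among the 7 genes held under all 14 alternatives, including the replicate block, which changed no call among the subunit or pathway genes named; the smallest adjusted p of a member was 0.255. Over 98 alternative estimates for the 7 genes, 88 kept their direction and 10 did not, none past the threshold, and the largest absolute log2 fold change was 0.13. With the block, the 7 estimates were -0.039 (Gabra2), 0.038 (Gabra4), 0.014 (Gabra5), 0.098 (Gabrb1), 0.0026 (Gabrb2), -0.012 (Gabrg1) and -0.049 (Gabrd), and the exact p for the Gabrb1 share within pairs was 0.25, the smallest for 3 pairs. Gabrb2 was -0.0040 with the filterByExpr filter and -0.0075 with no filter, and the Gabra5 share difference was 0.0055 percentage points without length; the cause was not tested. Leaving out 1 library at a time, log2 fold changes ran from -0.075 to 0.019 (Gabra2), 0.0037 to 0.092 (Gabra4), -0.032 to 0.059 (Gabra5), -0.032 to 0.043 (Gabrb2), 0.079 to 0.12 (Gabrb1), -0.077 to 0.087 (Gabrg1), -0.13 to -0.0081 (Gabrd), -0.18 to -0.046 (Gabrq), -0.20 to -0.072 (Lhfpl4), -0.11 to -0.033 (Slc12a5), -0.0075 to 0.062 (Gabra3), -0.083 to 0.13 (Gabra6), -0.0093 to 0.11 (Aldh5a1) and -0.061 to 0.22 (Adar), and share differences from 0.0252 to 0.686 (Gabra4), -0.155 to 0.172 (Gabra5), -0.245 to 0.149 (Gabrg1) and -0.856 to 0.0593 (Gabrd) percentage points. The pathway genes called ran from 0 to 1, the 1 being Slc32a1 without Adar1 E861A/E861A Ifih1-/- replicate 2 (-0.26). Over all genes the count called was 69, and 158 with the block, 139 by the likelihood ratio test, 110 with filterByExpr, 376 with no filter and 42 to 113 without 1 library. Intervals cover these 3 libraries per genotype only.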
